A study of Homo sapiens with 6 samples.

Results

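The collagen genes encode the chains of the collagen proteins. They were chosen here by symbol, as every gene of the count table whose name is COL, a type number, A and a chain number, which gave 44 of 57773 genes. By type number, 9 genes belonged to the fibrillar collagens (types I, II, III, V and XI), 8 to the basement membrane collagens (types IV, XV and XVIII) and 27 to other types. RNA was sequenced from SW872, an established human liposarcoma cell line. Apatinib, a small-molecule inhibitor of the VEGF receptor VEGFR2, was given at 18 μM for 24 h in 3 replicates. Another 3 replicates were the control, and the sources used here do not say whether these received the solvent. The comparison asks how the mRNA of these cells differed after 24 h with the drug. The depth of sequencing, as total counts over all genes, was 18081919, 17275850 and 17352210 for the 3 Apatinib replicates in order. For control replicates 1, 2 and 3 it came to 17043314, 18139437 and 22067558, and values of samples are listed in that order throughout.

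Collagens are built from 3 chains wound into a triple helix, and most types assemble outside the cell into larger structures. Fibrillar collagens pack into the banded fibrils that give connective tissue its tensile strength, while type IV collagen forms the sheet-like network of basement membranes, with types XV and XVIII associated with it. Before export, the chains are hydroxylated, glycosylated and folded in the endoplasmic reticulum, and after it they are trimmed and cross-linked. Liposarcomas are tumours of mesenchymal origin, and mesenchymal cells are a main source of fibrillar and beaded filament collagens.

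Control replicates 1 and 2 stood closer together than any other pair of samples. Their mean chi-square per gene was 2.27 over 14081 genes, where sampling noise alone would give about 1, and the other pairs within a group gave 18.2 to 44.5. Over the 24 collagen genes in that comparison, the mean for these controls was 2.31. They differed by more than sampling noise and were kept as 2 samples. The counts of changed genes without either of them are given for the collagen genes, the pathway lists and all genes. The marker genes, the genes under other observations and some pathway genes, such as FN1 and P4HA1, were not followed in those fits. The methods of the study describe biological replicates, but the labels name no separate cultures, so the p-values measure only the spread between these samples, which may be technical.

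Of the 44 collagen genes, 29 had enough counts to be tested, and 11 of these were higher with Apatinib (37.9%). Calls required an edgeR FDR under 0.05 and, in either direction, a log2 fold change of more than 0.5. The FDR is the quasi-likelihood p-value of edgeR after Benjamini-Hochberg adjustment over all 16290 genes tested. Across all tested genes, 5.97% were called higher and 5.48% lower. The called collagen genes were 3 of 8 tested fibrillar genes (COL3A1, COL5A2 and COL5A3), 3 of 6 tested basement membrane genes (COL15A1, COL18A1 and COL4A6) and 5 of 15 tested genes of other types (COL6A1, COL6A2, COL6A3, COL8A2 and COL16A1). With edgeR, 0 collagen genes were called lower, 1 was lower at an unadjusted p under 0.05 (COL27A1), and DESeq2 also called 0 lower. At an edgeR FDR under 0.05 with no limit on size, 14 collagen genes were higher, against 6.83% of all tested genes. In CPM, the counts scaled to a common library size by the TMM method, the groups did not overlap in 15 tested collagen genes that were higher and 1 tested collagen gene that was lower, against 17.5% and 15.7% of all tested genes. In bulk RNA, a change in the RNA per cell and a change in the share of cells that express a gene cannot be told apart.

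The number of called collagen genes depended on the controls that lie close together. Leaving out control replicate 1 gave 2 (COL15A1 and COL5A2), leaving out control replicate 2 gave 3 (the same genes and COL3A1), and it was also 3 when both were summed into 1 sample. Over all genes, the number called higher dropped likewise from 973 to 192, 215 and 207 in these fits. Without the other replicates 8 to 12 collagen genes were called. With an offset for GC content it was 7, of which 6 were among the 11, and 807 over all genes were called higher. COL5A2 was called under every alternative computed, and COL15A1 in each fit that left out a replicate.

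The median log2 fold change was 0.45 over the 29 tested collagen genes, against 0.00 over all tested genes. By class it was 0.46 for the fibrillar genes, 0.53 for the basement membrane genes and 0.20 for the other types, where it turned to -0.015 with the GC offset. That offset also lowered the median of all tested collagen genes to 0.26 and of the basement membrane genes to 0.34, and left the fibrillar genes at 0.45, so the order of these classes changed. The fibrillar median was also above that of the basement membrane genes without Apatinib replicate 2 or 3 or control replicate 1. It was below without Apatinib replicate 1 or control replicate 2. Leaving out a replicate moved the median of the other types to 0.10 (Apatinib replicate 3), 0.13 (control replicate 1) or 0.31 (control replicate 3). Of the 29 tested genes, 22 had a positive and 7 a negative log2 fold change, and with the GC offset 19 were positive. Basement membrane genes were positive in 6 of 6 cases, fibrillar genes in 6 of 8 and the other types in 10 of 15. Differences between the classes were not tested.

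**Figure D1:**
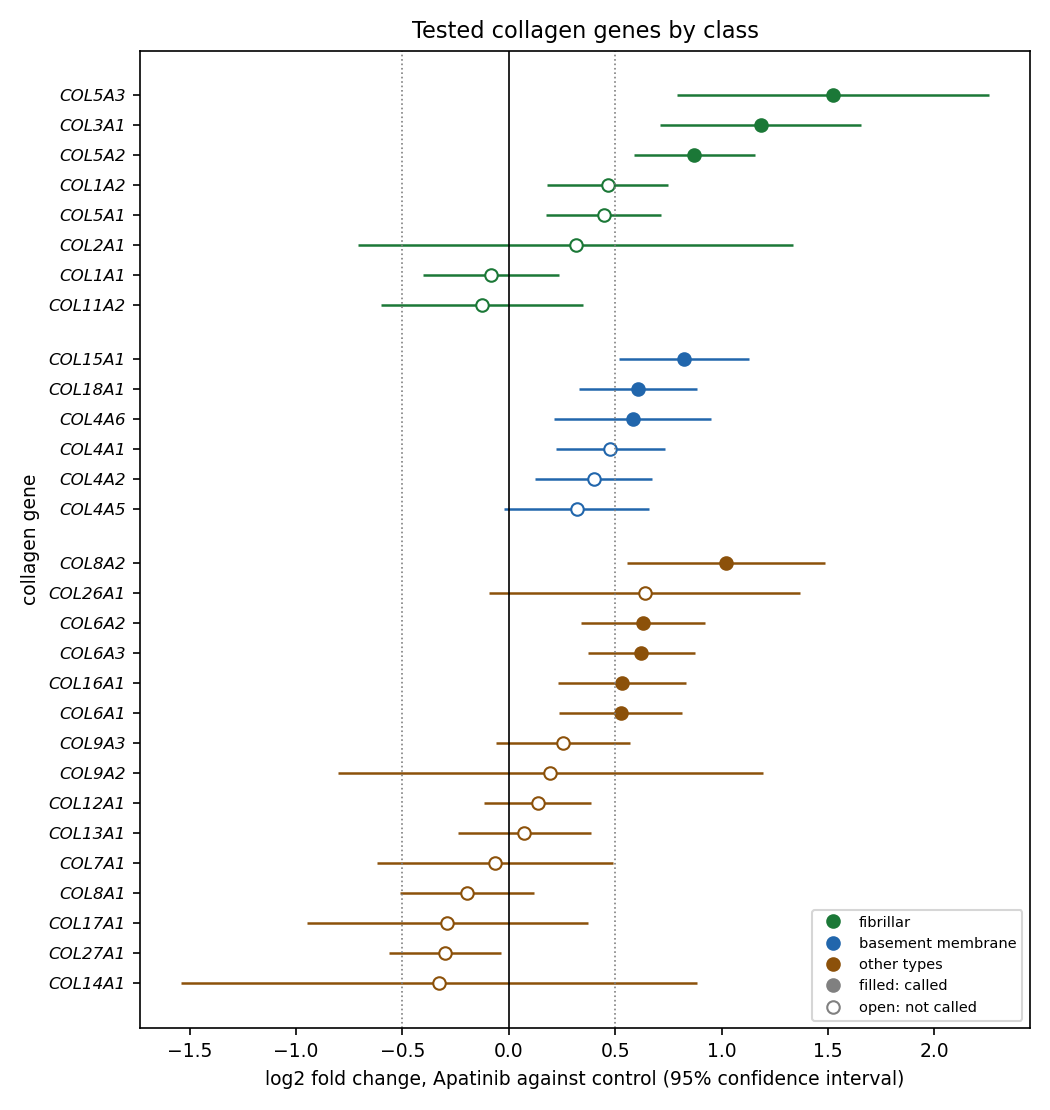
Log2 fold change of each tested collagen gene, Apatinib against control, with its 95% confidence interval from edgeR, grouped by class; filled points were called and dotted lines mark the limits of 0.5 and -0.5. The filled points lie between 0.53 and 1.52, and the basement membrane genes lie between 0.32 and 0.82.

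Summed over all 44 genes, collagen mRNA reached 5368, 5294 and 4606 CPM in Apatinib replicates 1 to 3. In control replicates 1 to 3 the sum was 3439.5, 3532 and 3846 CPM. The groups did not overlap, with control replicate 3 nearest to the treated samples, and the means were 5089 ± 421 and 3606 ± 213 CPM (SD, n = 3), a ratio of 1.41. As a share of all counts, collagen mRNA made up 0.464% to 0.543% with Apatinib and 0.3496% to 0.381% in the control.

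Every class had a higher sum in each treated sample than in any control. The fibrillar genes summed to 1239.9, 1139 and 1046 CPM with Apatinib, and to 794, 818 and 905 CPM in the control, a ratio of the means of 1.36. The basement membrane genes summed to 1037, 1183 and 931 CPM with Apatinib, and to 661, 664 and 705 CPM in the control, a ratio of 1.55. For the other types the sums were 3092, 2973 and 2629 CPM with Apatinib, against 1985, 2049.9 and 2237 CPM in the control, a ratio of 1.39. Few genes carried these sums: COL5A1, COL6A1 and COL6A2 together held 62.3% of the collagen CPM, and COL5A1 alone held 87.7% of the fibrillar sum. Such sums add genes of different lengths, so they weigh long and abundant mRNAs most.

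**Figure D2:**
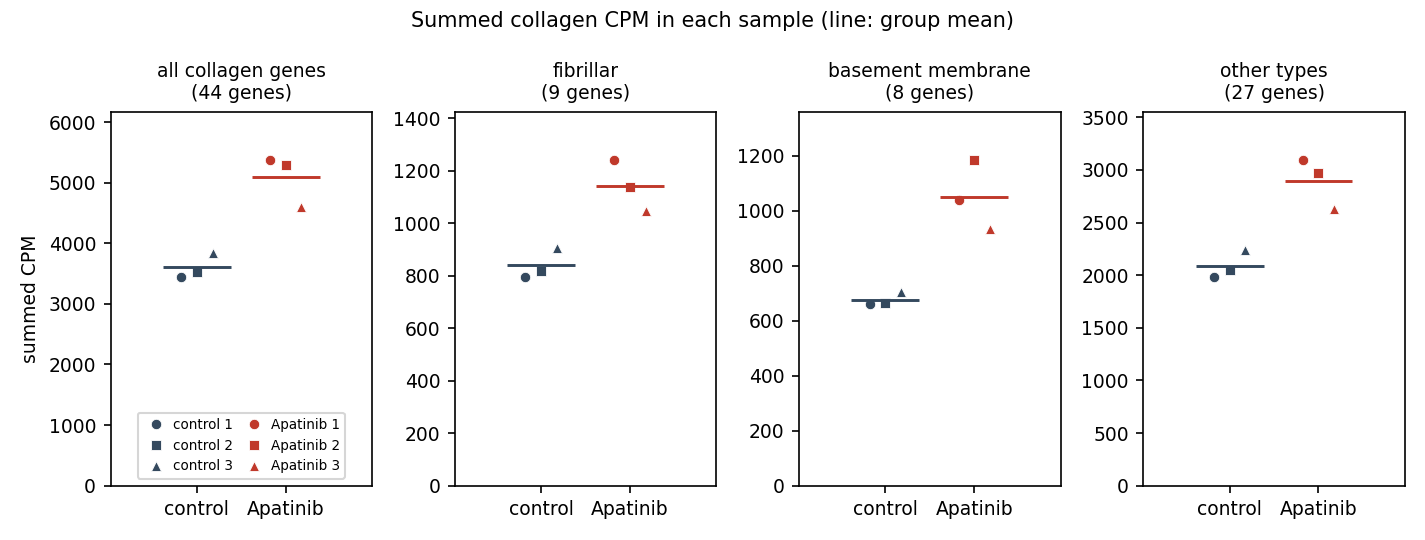
Summed CPM of all 44 collagen genes and of each class in the 6 samples, with a line at each group mean and axes that start at 0. Each Apatinib sample lies above each control sample in all 4 panels, with means of 5089 and 3606 CPM over all collagen genes.

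Per length of transcript, COL6A2 and COL6A1, chains of the beaded filament collagen, were the most abundant collagen mRNAs. In FPKM (fragments scaled to transcript length and library size), COL6A2 stood at 225 ± 20.4 with Apatinib and 142 ± 10.4 in the control (SD, n = 3), and COL6A1 at 204 ± 22.8 and 143 ± 9.59. These neighbours in the order did not differ beyond their spread. COL5A1 followed at 91.6 ± 5.21 and 67.0 ± 2.16 FPKM, then COL15A1 at 64.9 ± 13.7 and 36.0 ± 0.954, COL18A1 at 49.9 ± 4.51 and 31.3 ± 2.38, and COL12A1 at 21.3 ± 1.998 and 19.1 ± 1.23. The chains of type I collagen, the main fibrillar collagen of most connective tissues, were low in these cells. COL1A2 had 6.78 ± 0.564 FPKM with Apatinib and 4.91 ± 0.171 in the control, and COL1A1 had 3.88 ± 0.5001 and 4.20 ± 0.319.

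Among the fibrillar genes, the called members were chains of types III and V at low to middling levels. COL5A2 (ENSG00000204262) encodes a chain of type V collagen, which sits inside type I fibrils and limits their diameter. It had 30.4, 32.0 and 30.1 CPM in Apatinib replicates 1 to 3, against 17.8, 15.5 and 17.2 CPM in controls 1 to 3. Each treated sample was above each control, and COL5A2 rose 1.83-fold (log2 fold change 0.87, SE 0.1299, edgeR FDR 0.00478). COL3A1 (ENSG00000168542) encodes the chain of type III collagen, the fibrillar collagen of elastic tissues such as skin and vessel walls. It had 8.67, 11.9 and 7.56 CPM with Apatinib against 3.58, 4.67 and 4.12 CPM in the control. All treated samples were above all controls, with a rise of 2.27-fold (log2 1.18, SE 0.216, edgeR FDR 0.00955). COL5A3 (ENSG00000080573), a less widely expressed type V chain, had 6.51, 9.88 and 4.52 CPM with Apatinib, against 2.42, 1.43 and 3.34 CPM in the control. The treated samples spread widely but all lay above the controls, and the rise was 2.87-fold (log2 1.52, SE 0.336, edgeR FDR 0.0176). Without control replicate 1 the edgeR FDR was 0.0564 for COL3A1 and 0.0721 for COL5A3, and without control replicate 2 it was 0.0764 for COL5A3. COL3A1 shares exon bases with MIR3606 on the same strand and COL5A3 with AC008742.1 on the opposite strand in GENCODE 29, and the strand used for counting is not given in the sources used here.

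COL5A1 and COL1A2 had smaller differences that did not reach the size limit. COL5A1 (ENSG00000130635), the chain found in most type V molecules, had 1089, 998 and 917 CPM with Apatinib, against 693, 719 and 794 CPM in the control. No treated sample overlapped a control, and the log2 fold change was 0.45 (SE 0.123, edgeR FDR 0.0383), under the size limit of 0.5. COL1A2 (ENSG00000164692), whose product joins a pair of COL1A1 chains in type I collagen, had 57.0, 50.6 and 46.3 CPM against 35.7, 35.5 and 40.4 CPM. Here too no samples overlapped (log2 0.46, SE 0.1297, edgeR FDR 0.0394). Both genes passed the limit in fits that left out a replicate: COL5A1 at 0.51 without Apatinib replicate 3 and 0.51 without control replicate 3, and COL1A2 at 0.54 and 0.53 without the same samples. The GC offset moved them in opposite directions, COL5A1 to 0.26 with an edgeR FDR of 0.0893, which missed the threshold, and COL1A2 to 0.64 with an edgeR FDR of 0.0248, where it was called. Leaving out control replicate 1 or 2 raised the edgeR FDR to 0.194 or 0.182 for COL5A1 and to 0.181 or 0.186 for COL1A2. Without Apatinib replicate 1 it was 0.0928 for COL5A1 and 0.116 for COL1A2, and with a replicate block 0.0936 and 0.0857.

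Its partner COL1A1 (ENSG00000108821) had groups that overlapped. Its values were 43.7, 31.3 and 35.4 CPM with Apatinib, against 36.7, 38.3 and 41.9 CPM in the control, with Apatinib replicate 1 above all controls and the other treated samples below them. The log2 fold change was -0.08 with a 95% interval of -0.40 to 0.24 (edgeR FDR 0.740), 0.02 without Apatinib replicate 2 and -0.28 with the GC offset (edgeR FDR 0.102). Of the cartilage collagen genes, COL11A2 had 49 to 88 counts per sample and COL2A1 had 7 to 21. COL11A2, a chain of type XI collagen, was at -0.13 on the log2 scale (edgeR FDR 0.737), and COL2A1, the chain of type II collagen, at 0.31 (edgeR FDR 0.692).

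Upstream sequences are shown for called members of each class and for relatives that were not called. RefSeq promoter sequences of GRCh38.p14 were matched by symbol to 32 of the 44 members, 20 of the 29 tested and 8 of the 11 called. COL14A1, COL1A1, COL1A2, COL20A1, COL22A1, COL2A1, COL3A1, COL5A2, COL6A1, COL6A5, COL8A1 and COL9A3 were not matched. Each window holds the 250 bases before the start, 5′ to 3′ on the strand of the gene, and the first listed start was used for the 8 members with several. Capitals mark matches on either strand to 5 motifs: the GC box GGGCGG, the CCAAT box CCAAT, the TATA box TATAAA, the AP-1 motif TGACTCA and the E-box CACGTG. The windows printed hold 0 to 29 bases that GENCODE 29 places in exons. The window of COL5A1 (chr9:134641553-134641802, plus strand) has 74.0% GC and 2 GC boxes, and that of COL5A3 (chr19:10010505-10010754, minus strand) has 66.0% GC, 1 GC box and 1 CCAAT box.
COL5A1: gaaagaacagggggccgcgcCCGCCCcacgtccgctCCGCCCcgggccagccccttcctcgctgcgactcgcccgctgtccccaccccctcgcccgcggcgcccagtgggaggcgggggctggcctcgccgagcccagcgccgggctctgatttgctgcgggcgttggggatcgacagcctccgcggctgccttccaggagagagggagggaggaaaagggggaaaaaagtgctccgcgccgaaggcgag
COL5A3: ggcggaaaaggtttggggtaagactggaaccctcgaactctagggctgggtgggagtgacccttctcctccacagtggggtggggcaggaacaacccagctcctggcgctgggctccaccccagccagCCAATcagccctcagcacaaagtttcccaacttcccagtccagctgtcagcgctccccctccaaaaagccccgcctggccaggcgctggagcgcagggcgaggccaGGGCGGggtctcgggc

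The GC box was in 18 of the 32 matched members, 13 of the 20 tested and 6 of the 8 called, against 42.6% of all 35116 promoter windows of the same length. The CCAAT box was in 9, 6 and 2 of them, against 32.0% of all windows, and the TATA box in 5, 4 and 1, against 10.7%. The AP-1 motif and the E-box were in 0 of the 32 windows, against 4.20% and 6.34% of all windows, which says only that these letters are not in these windows. Of the 32 windows, 8 lie mostly in exons of GENCODE 29, among them those of COL15A1, COL16A1 and COL6A3, which were called, and of COL4A1 and COL4A2. Without these 8 windows the GC box was in 12 of 24 matched, 9 of 14 tested and 4 of 5 called members. A match describes the letters and is neither a binding site nor a cause.

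Basement membrane genes showed the highest ratio of summed CPM, and COL15A1 and COL18A1 carried most of the class. These genes encode multiplexin collagens, which bear glycosaminoglycan chains at basement membrane zones and release the fragments restin and endostatin. COL15A1 (ENSG00000204291) had 458, 575 and 406 CPM in Apatinib replicates 1 to 3, against 269, 269.6 and 273 CPM in controls 1 to 3. The controls lay close together, every treated sample was above them, and COL15A1 rose 1.77-fold (log2 fold change 0.82, SE 0.140, edgeR FDR 0.00738). COL18A1 (ENSG00000182871) had 289, 281 and 243 CPM with Apatinib against 163, 172 and 198 CPM in the control. There was no overlap, and the rise was 1.52-fold (log2 0.61, SE 0.127, edgeR FDR 0.0145). COL18A1 lost its call without control replicate 1 (edgeR FDR 0.0993), without control replicate 2 (0.0913) and with the GC offset (log2 0.34). In GENCODE 29 COL15A1 shares exon bases with AL136084.3, and COL18A1 with SLC19A1, on opposite strands.

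Type IV collagen has 6 genes, which lie in 3 pairs that are read away from each other. COL4A1 and COL4A2, the chains of the common type IV network, had starts 127 bases apart on chromosome 13. COL4A5 and COL4A6 had starts 380 bases apart on the X chromosome, and COL4A3 and COL4A4 had starts 419 bases apart on chromosome 2.

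The COL4A1 and COL4A2 pair differed between the groups in the same direction. COL4A1 (ENSG00000187498) had 56.9, 56.9 and 51.6 CPM with Apatinib, against 40.2, 38.7 and 39.9 CPM in the control. COL4A2 (ENSG00000134871) had 138, 129 and 119 CPM against 91.7, 91.5 and 110.0 CPM. Neither gene had overlapping groups. The log2 fold change of COL4A1 was 0.48 (SE 0.116, edgeR FDR 0.0255), under the size limit. It was 0.53 and called without Apatinib replicate 3, but 0.35 with the GC offset (edgeR FDR 0.0314), and leaving out control replicate 1 or 2 raised the edgeR FDR to 0.123 or 0.141. COL4A2 was at 0.40 (SE 0.125) and its edgeR FDR of 0.0563 missed the threshold. The GC offset brought it to 0.21 (edgeR FDR 0.119), leaving out control replicate 2 to 0.35 (edgeR FDR 0.255) and leaving out control replicate 3 to 0.49 (edgeR FDR 0.0299), still under the size limit. COL4A2 shares exon bases with the antisense genes COL4A2-AS1 and COL4A2-AS2, and reads of the partners cannot be told apart without strand.

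Of the X-linked pair, COL4A6 was called and COL4A5 was not. COL4A6 (ENSG00000197565), a chain of the type IV network of smooth muscle and some epithelia, had 14.1, 18.1 and 14.5 CPM with Apatinib, against 11.9, 9.46 and 9.76 CPM in the control. The groups did not overlap and the log2 fold change was 0.58 (SE 0.168, edgeR FDR 0.0436). This call rested on all 6 samples: without Apatinib replicate 1, 2 or 3 the edgeR FDR was 0.0634, 0.0808 or 0.0560, and without control replicate 1, 2 or 3 it was 0.0960, 0.195 or 0.0734. COL4A6 was not called with the GC offset either (log2 0.47, edgeR FDR 0.0776). COL4A5 (ENSG00000188153), which pairs with either COL4A6 or the COL4A3 and COL4A4 chains, had 80.0, 122 and 96.4 CPM against 84.5, 82.1 and 72.9 CPM. Its groups overlapped, with Apatinib replicate 1 under control replicates 1 and 2, and the log2 fold change was 0.32 with a 95% interval of -0.02 to 0.66 (edgeR FDR 0.191). For COL4A5 it was 0.46 without Apatinib replicate 1 and 0.15 without Apatinib replicate 2, not called in either fit. The difference between both changes was not tested. COL4A3 and COL4A4, the chains of the kidney glomerular network, reached at most 8 and 6 counts in any sample and were not tested.

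The window before COL4A5 lies between the starts of this pair and is shown beside that of COL18A1, the called member with the most GC boxes among the windows printed. The COL4A5 window (chrX:108439588-108439837, plus strand) has 51.2% GC and 2 CCAAT boxes, with letters on opposite strands. The COL18A1 window (chr21:45404915-45405164, plus strand) has 88.4% GC and 9 GC boxes, of which 1 pair overlaps.
COL4A5: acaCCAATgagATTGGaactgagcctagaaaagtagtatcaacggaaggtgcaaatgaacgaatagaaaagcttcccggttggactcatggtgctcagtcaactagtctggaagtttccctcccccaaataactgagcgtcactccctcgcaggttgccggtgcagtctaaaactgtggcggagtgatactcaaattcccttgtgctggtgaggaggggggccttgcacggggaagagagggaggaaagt
COL18A1: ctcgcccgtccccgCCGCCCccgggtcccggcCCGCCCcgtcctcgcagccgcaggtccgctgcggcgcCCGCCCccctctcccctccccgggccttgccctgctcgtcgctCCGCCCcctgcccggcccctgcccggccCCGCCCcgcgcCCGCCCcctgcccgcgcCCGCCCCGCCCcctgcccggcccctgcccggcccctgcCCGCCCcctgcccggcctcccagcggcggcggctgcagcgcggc

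Among the other types, the tested chains of type VI collagen were all called. Type VI collagen forms beaded microfilaments that link cells to the surrounding matrix, and its common form joins the COL6A1, COL6A2 and COL6A3 chains. COL6A1 (ENSG00000142156) had 1207, 1204 and 973 CPM with Apatinib, against 738, 763 and 849.8 CPM in the control. COL6A2 (ENSG00000142173) had 1175, 1097 and 946 CPM against 649, 654 and 774 CPM. COL6A3 (ENSG00000163359) had 98.9, 96.5 and 87.9 CPM against 62.6, 59.2 and 62.3 CPM. None of the 3 genes had overlapping groups, and in COL6A1 and COL6A2 Apatinib replicate 3 and control replicate 3 lay nearest to the other group. The rise was 1.44-fold for COL6A1 (log2 0.53, SE 0.131, edgeR FDR 0.0278), 1.55-fold for COL6A2 (log2 0.63, SE 0.133, edgeR FDR 0.0150) and 1.54-fold for COL6A3 (log2 0.62, SE 0.115, edgeR FDR 0.00981). Without control replicate 1 the edgeR FDR values were 0.147, 0.0959 and 0.0637, and without control replicate 2 they were 0.141, 0.0980 and 0.0761. COL6A1 also lost its call without Apatinib replicate 1 (edgeR FDR 0.0681) and without Apatinib replicate 2 (log2 0.48). With the GC offset COL6A1 was at 0.31 and COL6A2 at 0.37, and neither was called.

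COL8A2 and COL16A1 were the remaining called genes. COL8A2 (ENSG00000171812), a chain of the network-forming type VIII collagen of the cornea and vessel wall, had 15.9, 11.6 and 10.2 CPM with Apatinib, against 5.48, 5.44 and 7.56 CPM in the control. The groups did not overlap and COL8A2 rose 2.03-fold (log2 1.02, SE 0.213, edgeR FDR 0.0145). Its partner COL8A1 (ENSG00000144810) had 19.5, 25.6 and 21.4 CPM against 25.1, 27.3 and 24.0 CPM. These groups overlapped, and the log2 fold change was -0.20 with a 95% interval of -0.51 to 0.12 (edgeR FDR 0.382). For COL8A1 it was -0.11 without Apatinib replicate 1 and -0.31 without Apatinib replicate 2, not called in either fit. COL16A1 (ENSG00000084636), a fibril-associated collagen, had 93.5, 70.9 and 83.8 CPM with Apatinib against 51.3, 58.7 and 61.6 CPM. All treated samples were above the controls, and the rise was 1.45-fold (log2 0.53, SE 0.137, edgeR FDR 0.0303). Without control replicate 1 or 2 the edgeR FDR was 0.0784 or 0.0789 for COL8A2 and 0.166 or 0.120 for COL16A1. COL16A1 also missed the threshold without Apatinib replicate 1 (edgeR FDR 0.0911), without Apatinib replicate 3 (0.0575) and with the GC offset (0.0575), and it shares exon bases with AC114488.2 on the opposite strand.

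**Figure D3:**
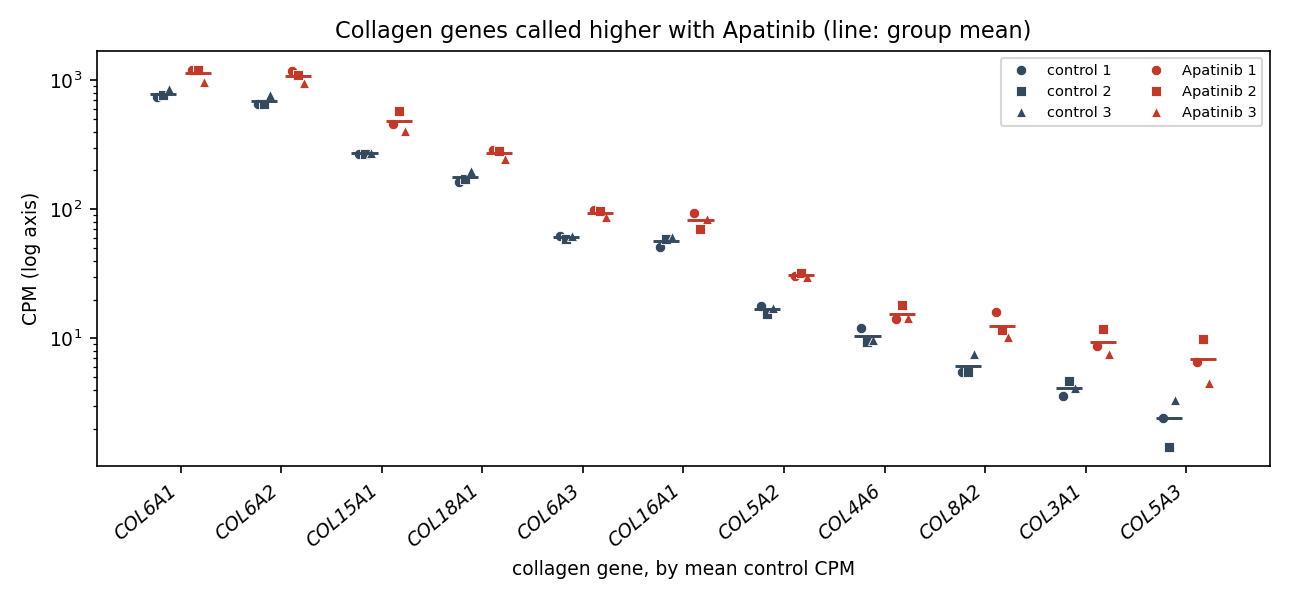
CPM of the 11 called collagen genes in the 6 samples on a log axis, ordered by mean control CPM, with a line at each group mean. In each gene the Apatinib samples lie above the control samples, from COL6A1 at 738 to 1207 CPM down to COL5A3 at 1.43 to 9.88 CPM.

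COL12A1 and COL27A1 did not follow the called genes. COL12A1 (ENSG00000111799), an abundant fibril-associated collagen, had 345, 329 and 377 CPM with Apatinib, against 317, 336 and 303 CPM in the control. The groups overlapped, and the log2 fold change was 0.14 with a 95% interval of -0.12 to 0.39 (edgeR FDR 0.460). COL27A1 (ENSG00000196739), a fibrillar-like collagen of cartilage, had 69.0, 75.1 and 65.0 CPM with Apatinib against 79.3, 87.4 and 90.5 CPM. Among the tested members, only this gene had all treated samples below the controls, with a log2 fold change of -0.30 (SE 0.119, edgeR FDR 0.116) that did not pass the test. With the GC offset COL27A1 was at -0.48 with an edgeR FDR of 0.0141, still within the size limit. Of the 7 other tested members of this class, COL26A1 was at 0.64 (edgeR FDR 0.220), COL9A3 at 0.25, COL9A2 at 0.20, COL13A1 at 0.07, COL7A1 at -0.07, COL17A1 at -0.29 and COL14A1 at -0.33.

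Windows of COL6A2 and COL8A2, which were called, and of COL27A1, which was not, are shown for comparison. COL6A2 (chr21:46097862-46098111, plus strand) has 79.6% GC, 4 GC boxes and 1 TATA box, which lies between GC boxes without overlap. COL8A2 (chr1:36125223-36125472, minus strand) has 82.0% GC and 7 GC boxes, of which 1 pair overlaps. COL27A1 (chr9:114155287-114155536, plus strand) has 64.4% GC and 2 GC boxes.
COL6A2: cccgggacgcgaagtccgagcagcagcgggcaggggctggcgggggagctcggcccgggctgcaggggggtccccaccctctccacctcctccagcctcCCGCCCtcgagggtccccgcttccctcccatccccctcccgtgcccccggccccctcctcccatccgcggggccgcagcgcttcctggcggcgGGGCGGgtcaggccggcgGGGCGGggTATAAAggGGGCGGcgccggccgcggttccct
COL8A2: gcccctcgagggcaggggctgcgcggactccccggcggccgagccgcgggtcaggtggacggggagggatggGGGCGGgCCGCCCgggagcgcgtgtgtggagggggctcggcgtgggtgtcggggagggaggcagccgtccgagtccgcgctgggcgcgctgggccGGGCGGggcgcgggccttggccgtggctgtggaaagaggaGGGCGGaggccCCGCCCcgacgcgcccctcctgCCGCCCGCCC
COL27A1: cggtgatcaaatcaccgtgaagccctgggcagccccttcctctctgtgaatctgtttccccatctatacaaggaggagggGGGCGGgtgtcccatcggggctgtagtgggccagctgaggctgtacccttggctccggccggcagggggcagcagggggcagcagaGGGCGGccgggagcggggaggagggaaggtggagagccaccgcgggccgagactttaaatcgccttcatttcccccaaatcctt

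Ratios between chains of the same collagen show where partners moved apart. The FPKM ratio of COL1A2 to COL1A1 was 1.61, 2.02 and 1.65 in Apatinib replicates 1 to 3, against 1.19, 1.202 and 1.12 in controls 1 to 3. Each treated sample was above each control, with means of 1.76 ± 0.225 and 1.17 ± 0.0462 (SD, n = 3). The ratio of COL8A2 to COL8A1 was 0.904, 0.474 and 0.507 with Apatinib against 0.215, 0.213 and 0.336, again with no overlap and with Apatinib replicate 1 far above the others. Within type V collagen, the ratio of COL5A2 to COL5A1 was 0.0310, 0.0355 and 0.0362 against 0.0280, 0.0229 and 0.0239. That of COL5A3 to COL5A1 was 0.00803, 0.0123 and 0.00710 against 0.00462, 0.00277 and 0.00520. The groups did not overlap in either ratio, while COL5A1 remained by far the most abundant type V chain in all samples.

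Ratios of the other partners overlapped or lay close. The ratio of COL4A2 to COL4A1 was 2.91, 2.63 and 2.71 with Apatinib, against 2.67, 2.73 and 3.18 in the control, and the groups overlapped. Groups also overlapped in the FPKM ratios of COL6A2 to COL6A1 and of COL4A6 to COL4A5, although in CPM the treated samples were above the controls. The ratio of COL6A3 to COL6A1 was 0.0358, 0.0346 and 0.0384 with Apatinib against 0.0342, 0.0335 and 0.0345, without overlap in FPKM and with overlap in CPM. No test was made on these ratios.

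**Figure D4:**
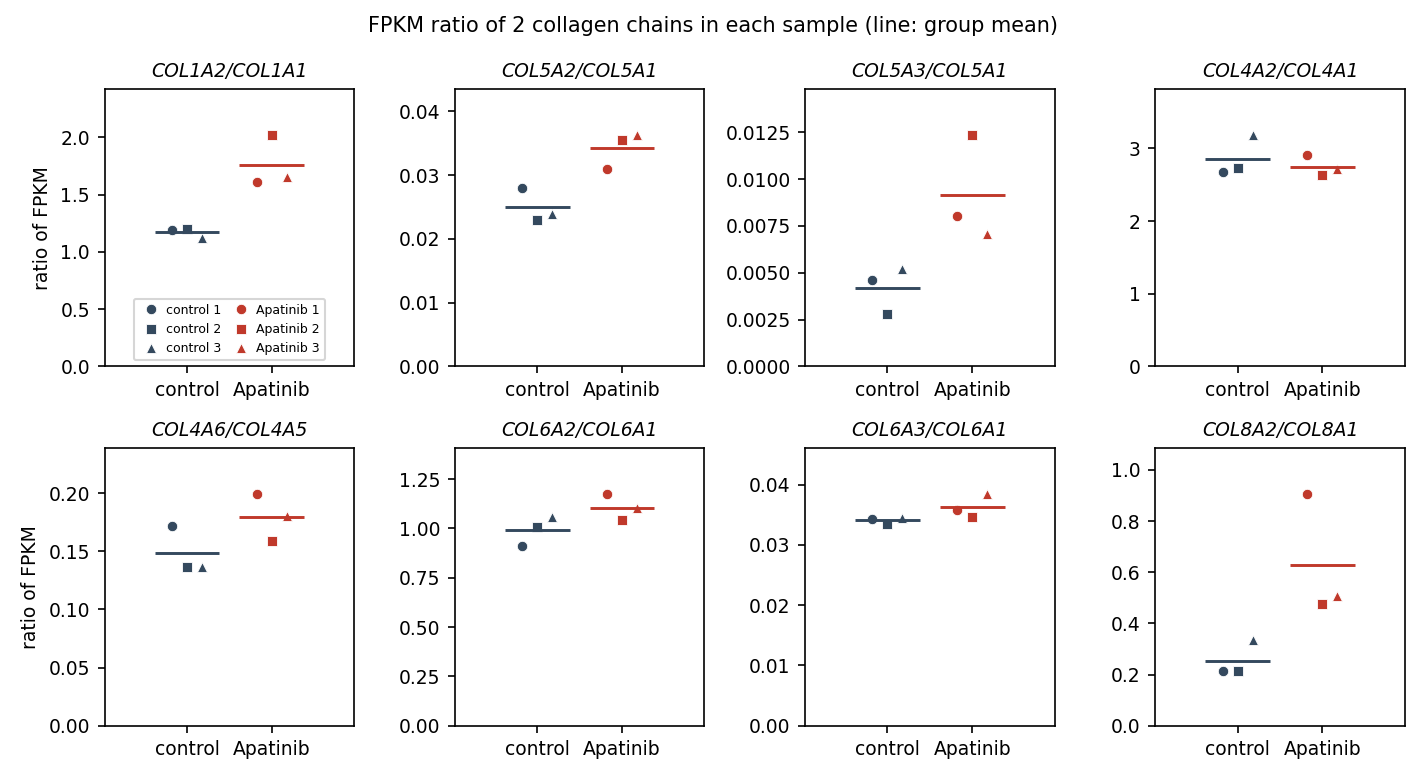
FPKM ratio of chain pairs of the same collagen in the 6 samples, with a line at each group mean and axes that start at 0. The Apatinib samples lie above the controls for COL1A2 to COL1A1 (1.61 to 2.02 against 1.12 to 1.202) and overlap them for COL4A2 to COL4A1 (2.63 to 2.91 against 2.67 to 3.18).

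The 15 members that were not tested had at most 12 counts in any sample (COL21A1, a fibril-associated collagen). The filter asked for about 0.564 CPM in at least 3 samples. COL11A1, COL24A1, COL6A5 and COL19A1 had 0 counts in all 6 samples. COL10A1, the collagen of hypertrophic cartilage, had 0, 0 and 3 counts in treated and 9, 4 and 6 in control cells, without overlap in CPM. With no filter on low counts, 11 of the 15 genes could be fitted, and edgeR called 0 of them. At an unadjusted p under 0.05 this edgeR fit had 1, COL10A1, at a log2 fold change of -2.40 (SE 1.05, edgeR FDR 0.153). DESeq2 gave an adjusted p-value to 25 collagen genes, fewer than edgeR tested with its filter. Its lack of calls therefore does not decide on these 15 members.

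GC content differed between the collagen genes and other genes, and genes rich in GC differed between the groups. The median GC content of the tested collagen genes was 61.1%, against 48.5% for all tested genes. Among the 2259 tested genes with at least 60% GC, a limit chosen after seeing the data, 13.01% were called higher and the median log2 fold change was 0.20. Below the limit, 4.93% of 13560 genes were called higher and the median was -0.03. On the same split, 6 of 16 GC-rich collagen genes (median 0.42) and 5 of 13 other collagen genes (median 0.46) were called higher. With the GC offset, 6.15% of the GC-rich genes and 4.93% of the others were called higher, and so were 2 of 16 and 5 of 13 collagen genes, with medians of 0.24 and 0.35. The part of GC content in the collagen differences was not tested beyond this offset.

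Genes that make, export, trim, bind or degrade collagen were followed in 7 lists of 80 genes, of which 68 were tested. Calls went to 9 higher and 3 lower genes, with a median log2 fold change over the lists of 0.15, where all tested genes had 5.97% called higher and 5.48% lower. The 3 lower of 68 tested genes lie near that share, and in the lists below with 1 call no share is read. These 12 calls dropped to 3 when control replicate 1 was left out, to 3 when control replicate 2 was, and to 3 with both summed, and leaving out any other replicate gave 9 to 16.

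Of 17 tested genes for the modification and folding of collagen, 1 was called (PLOD2, lower), and the median was 0.10. PLOD2 (ENSG00000152952), the lysyl hydroxylase of the collagen telopeptides, had 125, 148 and 163 CPM in Apatinib replicates 1 to 3, against 249, 263 and 204 CPM in controls 1 to 3. All treated samples were lower than all controls, and PLOD2 fell by 0.72 on the log2 scale (SE 0.142, edgeR FDR 0.0121), with an edgeR FDR of 0.0702 without control replicate 1 and 0.0784 without control replicate 2. With the GC offset PLOD2 was at -0.30 and was not called. The prolyl hydroxylase genes P4HA1 and P3H2 (listed under its older symbol LEPREL1) were at -0.44 (edgeR FDR 0.0460) and 0.46 (edgeR FDR 0.0397), both within the size limit. P4HA1 was not followed in the fits that left out a replicate. P3H2 reached 0.53 and was called without Apatinib replicate 2 but was at 0.37 with the GC offset (edgeR FDR 0.0511). The edgeR FDR of P3H2 was 0.101 or 0.0760 without Apatinib replicate 1 or 3, and 0.148 or 0.146 without control replicate 1 or 2. P4HB, the most abundant gene of the list and the shared subunit of prolyl 4-hydroxylase, was at 0.02, and SERPINH1, the collagen chaperone HSP47, at -0.01. Of 9 tested genes of procollagen export, 1 was called (median 0.05). CREB3L1 (ENSG00000157613), a transcription factor of the endoplasmic reticulum that drives collagen genes in bone, had 51.9, 29.7 and 42.0 CPM with Apatinib, against 19.8, 21.7 and 22.4 CPM in the control. All treated samples were above the controls (log2 0.95, SE 0.186, edgeR FDR 0.0118), and the edgeR FDR was 0.0669 or 0.0542 without control replicate 1 or 2. SEC23A, a coat protein of the vesicles that leave the endoplasmic reticulum, was at -0.30 (edgeR FDR 0.185) and at 0.08 with the GC offset.

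Processing and cross-linking genes included members called in both directions, 3 higher and 1 lower of 12 tested, with a median of 0.29. LOXL4 (ENSG00000138131), a lysyl oxidase that starts collagen cross-links, had 12.1, 11.97 and 11.2 CPM with Apatinib, against 5.71, 4.67 and 4.76 CPM in the control. ADAMTS2 (ENSG00000087116), the protease that removes the N-propeptide of fibrillar procollagens, had 12.7, 13.1 and 10.4 CPM against 6.18, 5.83 and 6.28 CPM. In both genes the groups lay well apart, with log2 fold changes of 1.22 (SE 0.168, edgeR FDR 0.00361) and 0.99 (SE 0.167, edgeR FDR 0.00734), and both calls held in each of the 6 fits that left out a replicate. On log2 FPKM with a pseudocount of 1 or 0.1, limma called LOXL4 in both fits but not ADAMTS2 (limma FDR 0.0510 and 0.0571). LOX (ENSG00000113083), the founding lysyl oxidase, had 65.3, 89.7 and 78.4 CPM against 54.7, 52.4 and 44.4 CPM. TGM2 (ENSG00000198959), a transglutaminase that joins matrix proteins, had 938, 749.6 and 797 CPM against 1251, 1227 and 1488 CPM. Neither had overlapping groups, and LOX rose (log2 0.62, SE 0.146, edgeR FDR 0.0221) while TGM2 fell (log2 -0.67, SE 0.136, edgeR FDR 0.0131). Without control replicate 1 or 2 the edgeR FDR was 0.0803 or 0.0916 for LOX and 0.0573 or 0.0537 for TGM2. In GENCODE 29, exons of LOX overlap SRFBP1, those of TGM2 overlap RPRD1B and those of LOXL4 overlap AL139241.1, so reads may be shared.

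Among the receptors, 2 of 9 tested genes were called higher (median 0.19). ITGA11 (ENSG00000137809), a subunit of a collagen-binding integrin of fibroblasts, had 286, 366 and 234 CPM with Apatinib, against 196, 193 and 213 CPM in the control. MRC2 (ENSG00000011028), the endocytic receptor that takes up collagen fragments, had 485, 524 and 397 CPM against 290.3, 287 and 354 CPM. Both had groups without overlap, and both rose, with log2 fold changes of 0.56 (SE 0.156, edgeR FDR 0.0394) and 0.59 (SE 0.142, edgeR FDR 0.0237). ITGA11 lost its call without control replicate 1 (edgeR FDR 0.155), control replicate 2 (0.162), Apatinib replicate 1 (0.0737) or Apatinib replicate 2 (0.0656), and MRC2 without control replicate 1 (0.125), control replicate 2 (0.131) or Apatinib replicate 1 (0.0589). With the GC offset they were at 0.49 and 0.38 and were not called. At an unadjusted edgeR p under 0.05, 3 receptor genes were higher, the 2 called genes and DDR2 at 0.54 (edgeR FDR 0.113). At that p 2 were lower, the integrin subunit genes ITGA1 at -0.42 (edgeR FDR 0.129) and ITGA2 at -0.40 (edgeR FDR 0.147). The groups overlapped in DDR2, ITGA1 and ITGA2. Of all 16290 tested genes, 2487 were higher and 2492 lower at that p. DESeq2 called 3 receptor genes higher and 0 lower. ITGB1, the most abundant gene of the list, was at -0.27 (edgeR FDR 0.220).

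Of 9 tested collagen-binding matrix proteins, 3 were called higher and 9 had a positive log2 fold change (median 0.43). MATN2 (ENSG00000132561), a matrilin that bridges matrix fibres, had 95.1, 132 and 104 CPM with Apatinib, against 69.9, 68.1 and 66.4 CPM in the control. TNXB (ENSG00000168477), a tenascin of collagen fibrils, had 25.3, 23.6 and 18.1 CPM against 8.02, 7.31 and 11.5 CPM. FMOD (ENSG00000122176), the fibril-binding proteoglycan fibromodulin, had 15.5, 11.7 and 12.1 CPM against 7.22, 7.64 and 9.99 CPM. None of the 3 genes had groups that overlapped. Their log2 fold changes were 0.70 (SE 0.139, edgeR FDR 0.0127), 1.31 (SE 0.201, edgeR FDR 0.00507) and 0.65 (SE 0.187, edgeR FDR 0.0420). The value of TNXB is uncertain, because its exons overlap CYP21A2, ATF6B and AL662884.2 and the near-identical copy TNXA could share its reads. Without control replicate 1 or 2 the edgeR FDR was 0.0669 or 0.0711 for MATN2 and 0.183 or 0.175 for FMOD, and FMOD was at 0.133 without Apatinib replicate 1 and 0.0563 without Apatinib replicate 3. FN1, the fibronectin gene and most abundant gene of this list, was at 0.44 (edgeR FDR 0.0473), within the size limit. FN1 was not followed without control replicate 1 or 2.

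Collagen-degrading proteases had 1 called gene among 6 tested (median -0.01). MMP9 (ENSG00000100985), a gelatinase, had 3.02, 1.69 and 2.75 CPM with Apatinib, against 5.77, 4.62 and 4.81 CPM in the control. Treated samples all lay below the controls, and MMP9 fell (log2 -1.02, SE 0.247, edgeR FDR 0.0244), with an edgeR FDR of 0.110 without control replicate 1 and 0.0789 without control replicate 2. MMP9 shares exon bases with the antisense gene SLC12A5-AS1. MMP2, the other gelatinase, was at 0.45 (edgeR FDR 0.0428), within the size limit. It was at 0.52 and 0.51 without Apatinib replicate 3 or control replicate 3, where it was called, but at 0.29 with the GC offset (edgeR FDR 0.0604). Without Apatinib replicate 1, control replicate 1 or control replicate 2 the edgeR FDR of MMP2 was 0.121, 0.194 or 0.201. Of the 6 genes for TGF-beta ligands and receptors, a growth factor system that drives collagen expression in fibroblasts, edgeR called 0 and DESeq2 called 0, with 1 higher and 1 lower at an unadjusted p under 0.05. These were the ligand gene TGFB2 at 0.39 (edgeR FDR 0.0696), called at 0.70 with the GC offset, and the receptor gene TGFBR1 at -0.45 (edgeR FDR 0.0717), called at -0.61 without Apatinib replicate 3 and at -0.52 without control replicate 3, but at -0.14 with the GC offset (edgeR FDR 0.489).

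**Figure D5:**
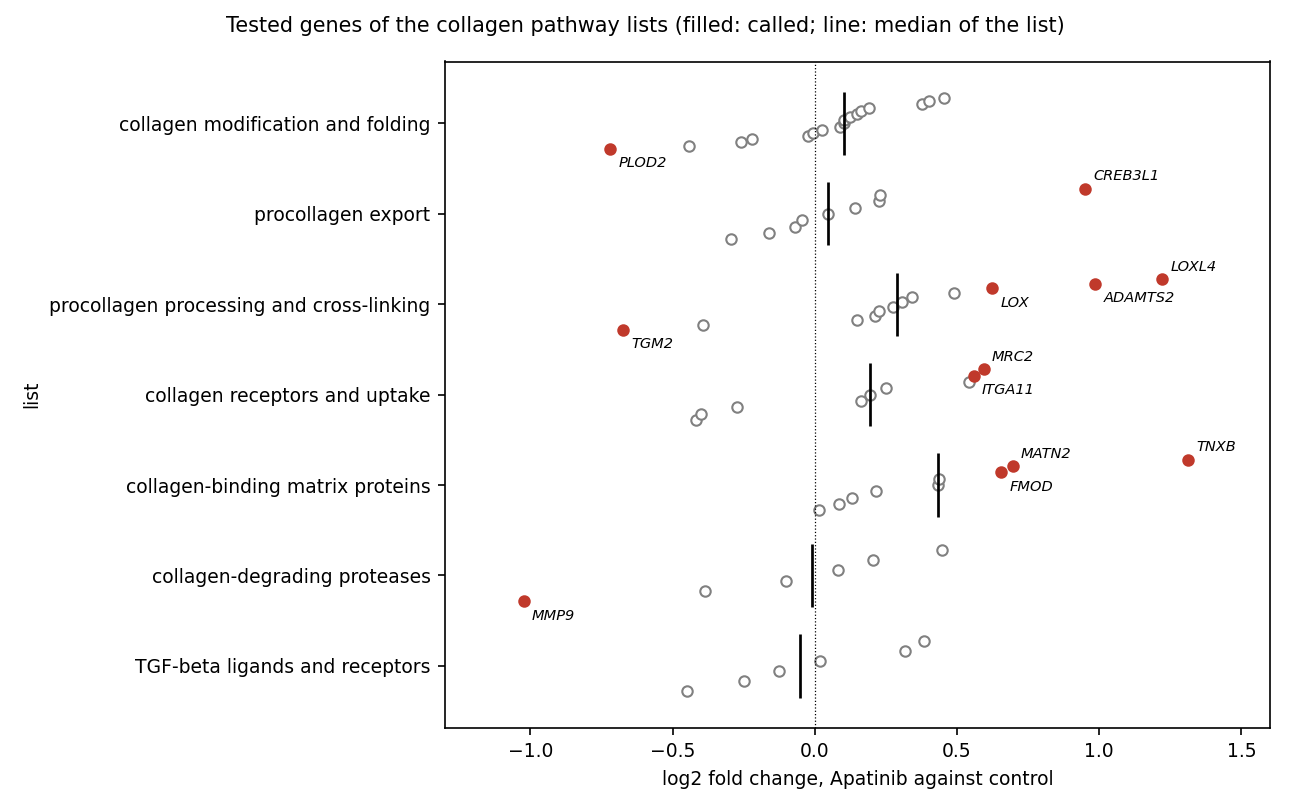
Log2 fold change of each tested gene in the 7 collagen pathway lists, Apatinib against control, with filled points for the 12 called genes and a line at the median of each list. Medians run from -0.05 for the TGF-beta list to 0.43 for the collagen-binding matrix proteins.

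Marker genes were read to check the label of the cells. All 6 mesenchymal markers were detected, and their summed CPM was 3302, 3481 and 2984 in Apatinib replicates 1 to 3, against 2435, 2459 and 2601 in controls 1 to 3. CD44, the most abundant of them in CPM, was at 0.46 (edgeR FDR 0.0425), within the size limit, and VIM, the most abundant in FPKM, at 0.27 (edgeR FDR 0.177). Of 8 adipocyte markers 3 were tested, and ADIPOQ, FABP4 and CEBPA, defining markers of mature fat cells, had 0 counts in all samples. ADIPOQ and FABP4 were also listed at 0 FPKM, while CEBPA had 0.0579 to 0.319 FPKM, so the deposited units differ for CEBPA. The adipocyte list summed to 65.6, 89.5 and 69.8 CPM with Apatinib, and to 63.0, 62.0 and 61.4 CPM in the control. Its most abundant gene was PPARG, the regulator of fat cell formation, at 0.11, and LPL, the lipoprotein lipase gene, was called higher (log2 0.84, edgeR FDR 0.0237).

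In CPM, markers of other cell types had lower sums than the mesenchymal markers. The 6 epithelial markers, 3 of them tested, summed to 158, 134 and 126 CPM with Apatinib, and to 95.7, 104 and 112 CPM in the control, with KRT18 most abundant and KRT8 called higher (log2 0.71, edgeR FDR 0.0166). Of 6 endothelial markers, 5 were found by name and 3 tested, with sums of 16.6, 17.6 and 15.6 CPM against 16.7, 14.6 and 15.5 CPM. TEK was most abundant, VWF was called higher (log2 1.52, edgeR FDR 0.0386) and CDH5 lower (log2 -1.22, edgeR FDR 0.0242). The 5 smooth muscle markers, with MYH11 and ACTA2 level in total counts, ACTA2 most abundant in FPKM and 3 tested, summed to 4.13, 3.89 and 4.29 CPM against 3.06, 3.24 and 3.16 CPM. The 5 leukocyte markers, with CD14 most abundant in counts, 1 tested and PTPRC at 0 in all samples, summed to 4.01, 4.01 and 2.75 CPM against 4.50, 5.44 and 5.04 CPM. CD68, a marker of macrophages and of lysosomes in other cells, had 0 counts in 5 samples and 1 in control replicate 3, so it adds almost nothing to this sum. In FPKM, however, it was at 11.8, 8.56 and 6.78 with Apatinib, against 3.30, 1.79 and 2.85 in the control, above CD14 in 5 of the 6 samples and without overlap between the groups. Why the counts and FPKM of CD68 differ was not tested. The calls of LPL, KRT8, VWF and CDH5 were not followed without control replicate 1 or 2. The part of these markers in the collagen differences was not tested.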

How the data were processed

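The authors deposited a table of gene counts, whole numbers without normalization, and FPKM values for each of the 6 samples. The submitters' processing notes name hg19, CASAVA and STAR 2.7.1a, while the counting program, annotation and strand setting are not given in the sources used here. 1 column of per-sample values, headed with another sample's label, was not used. Members and gene lists were chosen with earlier results of these data known. Counts were tested over all 16290 genes kept by filterByExpr with edgeR 4.0.16 (TMM, quasi-likelihood F test, Benjamini-Hochberg adjustment) in R 4.3.3, after the steps had been tested on simulated data. Called genes had an FDR under 0.05 and, in either direction, more than 0.5 in log2 fold change, the limits of the study. Total counts were 17043314 to 22067558, and the biological coefficient of variation was 0.149. Named collagen genes were those called, those with an unadjusted p under 0.05, the 3 most abundant of each class by FPKM, and partners of these chains. From each pathway list, called genes and the 2 with the smallest p were named; other names were added after their values were seen. DESeq2 1.42.0, limma 3.58.1 on log2 FPKM with a pseudocount of 1 or 0.1, RLE factors, other filters, a replicate block, summed controls, a loess offset for GC content (span 0.3) and leaving out each replicate were alternatives. GC content and exon overlaps came from GENCODE 29, and upstream sequences from RefSeq GRCh38.p14. Sequences were matched by symbol and no coordinates were converted between builds.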

Additional observations from a re-analysis of the deposited data

How the results depend on the processing

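DESeq2, RLE factors, no count filter and a minimum of 10 counts in every sample kept the same 11 collagen genes called. A replicate block called 10 collagen genes and 13 pathway genes, and COL4A6 was the named collagen gene that lost its call. Same-numbered samples had correlations of -0.259, 0.0808 and -0.220 in their deviations from the group means. These values show no pairing by number, but 3 samples per group cannot decide whether samples were handled in pairs. Summing control replicates 1 and 2 gave 3 called collagen genes and 3 called pathway genes, and 70.9% of all called genes were then higher, against 52.1% before. The GC offset gave 7 called collagen genes and medians of 0.26 for all collagen genes, 0.34 for basement membrane genes and -0.015 for other types. On log2 FPKM, limma called 6 collagen genes and 4 pathway genes with a pseudocount of 1, where the basement membrane median was 0.38, and 1 and 1 with a pseudocount of 0.1, where the fibrillar median was 0.66. In both limma fits the fibrillar median was above the basement membrane median. Leaving out each replicate gave 2 to 12 called collagen genes, 3 to 16 pathway genes and a median over the collagen genes of 0.38 to 0.53, and over the other types of 0.10 to 0.31. Over these 6 fits, the edgeR FDR of the called collagen genes ran from 0.00285 (COL5A2) to 0.195 (COL4A6). By class, leaving out a replicate gave 1 to 5 called fibrillar, 1 to 3 basement membrane and 0 to 5 other genes. The causes were not tested, beyond the fewer samples in these fits. Among the collagen and pathway genes, no named gene that was called changed its sign under these alternatives. The marker genes, the genes under other observations and some pathway genes, such as FN1 and P4HA1, were not followed gene by gene. The 15 untested members had at most 12 counts in any sample, and whether depth or lack of expression limits them was not tested.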

Other observations

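Outside the collagen family, 22 genes for other proteins that carry a collagen-like domain were listed after seeing the data, and 16 were tested. Of these, 4 were called higher and 0 lower by edgeR, the median on the log2 scale was 0.36, and 9 were higher and 2 lower at an unadjusted p under 0.05. Of all 16290 tested genes, 5.97% were called higher and 5.48% lower, and 2487 were higher and 2492 lower at that p, so the 2 lower genes lie near the share over all genes. DESeq2 called 3 higher and 0 lower. The 4 edgeR calls were not followed without control replicate 1, without control replicate 2 or with both summed. Over all genes, the number called higher dropped in these fits from 973 to 192, 215 and 207. SCARA5, a ferritin scavenger receptor with a collagen-like stalk, had 23, 41 and 32 counts in treated and 6, 7 and 14 in control cells. The groups did not overlap in CPM (log2 1.96, edgeR FDR 0.0114). CCBE1, a secreted protein needed for lymphatic vessel growth, had 23.5 ± 0.668 CPM with Apatinib against 15.02 ± 0.859 CPM in the control (SD, n = 3). The spread within each group was small beside this difference (log2 0.65, edgeR FDR 0.0135). C1QTNF1, a secreted relative of complement C1q, had 32.6, 22.7 and 25.5 CPM against 15.5, 15.5 and 16.99 CPM (log2 0.75, edgeR FDR 0.0150), and EMID1 was at 0.78 (edgeR FDR 0.0404). COLEC10, a collectin, was at -0.48 (edgeR FDR 0.0375), within the size limit. C1QTNF5, C1QTNF7 and MARCO had 0 counts in all samples. C1QTNF7 and MARCO were also at 0 FPKM, but C1QTNF5 was at 3.82, 0.758 and 2.82 FPKM with Apatinib, against 0.621, 1.69 and 0.688 in the control, with groups that overlapped.

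Of 5 genes named as antisense to collagen genes, also listed after seeing the data, 1 was tested. COL5A1-AS1 had 19, 13 and 24 counts in treated and 33, 23 and 32 in control cells. Its log2 fold change was -0.52 (edgeR FDR 0.315), while COL5A1 was at 0.45.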
